A study of Rattus norvegicus with 24 samples.

Results

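The comparison described here is that of rats fed a diet with the G1 beta-glucan (C-G1, 4 arrays) and rats fed a diet with the G2 beta-glucan (C-G2, 4 arrays), none of which received LPS. These 8 arrays are those whose sample titles name either beta-glucan diet without LPS, out of 24 arrays in 6 groups of 4. All rats were male Sprague-Dawley rats, 8 weeks old at the start, and they received their diets for 6 weeks. G1 is an oat beta-glucan of high and G2 one of low molecular weight, added to a semi-synthetic diet, and C-G0 is the group fed that diet with no beta-glucan. By the methods, the groups named C received saline where the LPS groups received LPS (10 mg per kg), and blood was drawn after a fast. Each array carried blood RNA of a single rat in 1 channel and a common reference RNA, pooled from rats of all groups, in the other. The question is whether the diets differ from each other in blood of rats with no induced inflammation.

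Oat beta-glucans are chains of glucose with mixed linkages that mammalian enzymes do not digest. Blood cells that recognise beta-glucans do so through the C-type lectin dectin-1 (Clec7a) and through complement receptor 3, whose alpha chain is Itgam, and dectin-1 signals through the kinase Syk and the adaptor Card9. Whole blood RNA comes from leukocytes, platelets and young red cells, which still hold RNA, so a level in such a sample depends on the share of each cell type and on the RNA in each cell. Fewer cells of a type and less RNA per cell cannot be told apart here.

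All values are log2 ratios of rat RNA over reference RNA, and a difference is C-G1 minus C-G2. The labels put the rat RNA in the dye Cy3 and the methods put it in Cy5. The labels were followed, since the reference is the same RNA on every array and Cy3 varied more between arrays than Cy5 on 24 of 24 arrays. With the dyes of the methods every sign would turn. Slide 1 held C-G1 replicate 1 and C-G2 replicate 1, and slide 2 held C-G1 replicates 2 and 3 and C-G2 replicate 2. Slide 3 held C-G1 replicate 4 and C-G2 replicates 3 and 4. In Cy3, 9769 to 15349 of 30367 probes exceeded the background clearly on these 8 arrays, by the flag of the scanner software. Of the 8 arrays, C-G1 replicate 2 stood apart: the SD of its Cy3 signal around the mean of the other arrays was 0.84, against 0.25 to 0.48 on the other 7. Cell type genes were tested where they passed the background flag on all 4 arrays of C-G1 or of C-G2. High shares on all 8 arrays therefore follow from that filter. Of the genes on the array, tested were 12 of 14 of T cells, 7 of 11 of B cells and 10 of 13 of cytotoxic T and NK cells. Of neutrophils 7 of 14 were, of monocytes 8 of 12, of platelets 11 of 13 and of red cells 11 of 12. Of eosinophils, basophils and mast cells 2 of 12 were. On all 8 arrays the flag was passed by 11 of the 12 tested T cell genes, 8 of the 11 of red cells and all tested genes of the other cell types.

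Tested were 10027 probes that passed this background flag on all 4 arrays of C-G1 or all 4 of C-G2, and no probe differed between the diets after adjustment. The count at an adjusted p under 0.05 was 0 (0%), with or without a 2-fold limit, and the smallest adjusted p of limma was 0.313. Tukey HSD, the test named in the methods, also gave 0 after Benjamini-Hochberg adjustment over probes. Before that adjustment, 73 probes had a Tukey p under 0.05. The Tukey p already allows for all pairs of the 6 groups, so this count cannot be set beside those of limma. At an unadjusted limma p under 0.05, 577 probes (5.75%) were higher and 1008 (10.1%) lower in C-G1, which is 1585 or 15.8% of all. This excess of lower probes depended on the setting: 526 were higher and 388 lower in a fit of the 8 arrays alone, 557 and 504 with array weights, and 166 and 192 without C-G1 replicate 2. Of the 1585 probes, 38 (0.379% of all tested) were at least 2-fold higher and 35 (0.349%) at least 2-fold lower, 73 in all (0.728%). The 4 arrays of C-G1 did not overlap with the 4 of C-G2 for 331 of 10019 probes with a value on every array (3.3%), being higher in C-G1 for 216 (2.16%) and lower for 115 (1.15%). The median difference over all probes was 0.03 with a median SE of 0.21. At any p, 5341 probes were higher and 4686 lower in C-G1. Genes of a list were measured on the same 8 rats, so their counts by direction below are not independent results. For 7952 probes (79.3%) the 95% confidence interval of the difference lay within 2-fold in either direction, and for the others a larger difference is compatible with the data. The limma fit on simulated arrays recovered 97.5% of 4-fold and 44% of 2-fold changes at the adjusted p and 2-fold limit. At the adjusted p alone it recovered 70% of the 2-fold changes. The simulated noise was independent and of equal spread on every array, whereas C-G1 replicate 2 stood apart. These shares therefore need not hold for the real arrays.

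**Figure D1:**
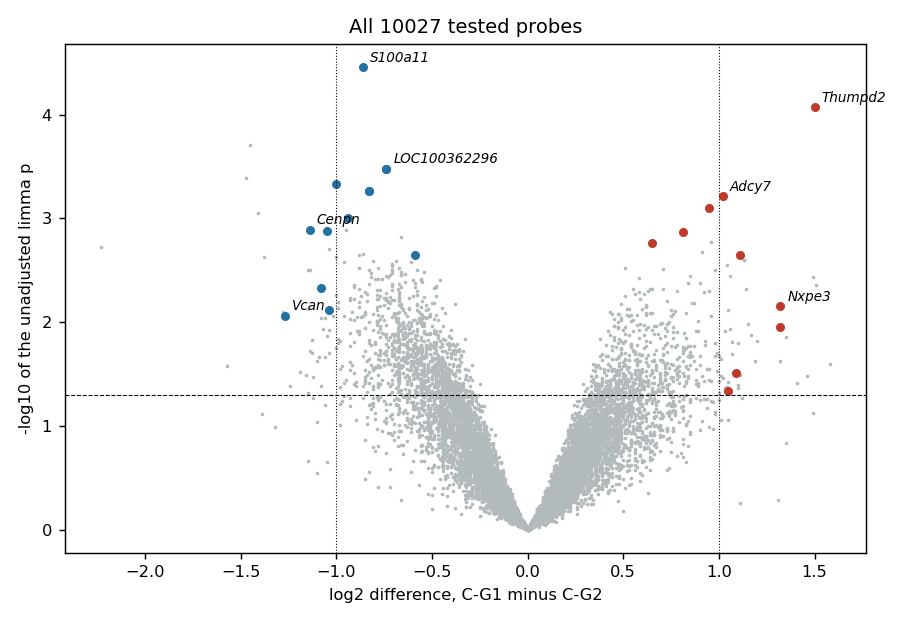
Difference between C-G1 and C-G2 (x axis, log2) and strength of the limma test (y axis, -log10 of the unadjusted p) for 10027 probes, with the dashed line at an unadjusted p of 0.05 and the dotted lines at 2-fold. Coloured points are the named genes and the S100a11 probes, and S100a11 has the smallest p of all while its difference is under 2-fold.

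The probe with the smallest unadjusted p was one for S100a11, a calcium-binding protein of the S100 family that is found in many cell types, leukocytes among them. It was lower on the G1 diet, as were the other 3 probes that carry this name or are annotated as S100-A11-like. S100a11 itself falls outside the rule by which genes were named, since its brightest probe was not among the first 10 of its direction, and it was chosen after its values were seen. The sequences of 3 of the 4 are shown, so that it can be seen that they are different stretches. They are printed 5′ to 3′ from the probe sequences in the deposited array files, and capitals mark a stop triplet at the end of a probe. The fourth, the brighter S100a11 probe, holds a polyadenylation signal (AATAAA) and is not printed.

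S100a11, chr2:186620424-186620483 (rn4): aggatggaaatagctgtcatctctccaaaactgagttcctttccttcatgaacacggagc
RGD1563581, chr17:5971145-5971204 (rn4): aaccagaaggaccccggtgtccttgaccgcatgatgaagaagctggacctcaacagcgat
LOC100362296, chr3:140651333-140651392 (rn4): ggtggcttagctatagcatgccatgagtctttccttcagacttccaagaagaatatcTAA

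No pair of the 4 probes shared a run of more than 10 bases. The array files place them on 3 chromosomes, and whether transcripts of 1 of these genes also bind the probes of another was not tested. The 4 probes are therefore not counted as 4 separate genes.

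The first S100a11 probe had log2 ratios of -0.29, -0.33, -0.18 and 0.11 in C-G1 and of 0.55, 0.82, 0.49 and 0.88 in C-G2. Every array of C-G1 lay below every array of C-G2. The difference was -0.86 ± 0.17 (SE), with a 95% confidence interval of -1.20 to -0.51, an unadjusted limma p of 3.48e-05 and an adjusted p of 0.313. The second S100a11 probe, the brighter one, lies at chr2:186621988-186622047 and had ratios of -0.06, -0.29, -0.34 and 0.07 in C-G1 against 0.34, 0.32, 0.34 and 0.73 in C-G2. The difference of this probe was -0.59 ± 0.17 with an unadjusted limma p of 0.00225 and an adjusted p of 0.313. For RGD1563581 the values were -0.30, -0.59, -0.47 and 0.10 against 0.55, 0.25, 0.44 and 0.80, and the difference was -0.83 ± 0.21. For LOC100362296 they were -0.38, -0.54, -0.19 and -0.15 against 0.43, 0.16, 0.51 and 0.58, a difference of -0.74 ± 0.18.

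None of these 4 probes had overlapping groups, which for RGD1563581 and LOC100362296 is part of the rule that named them. With C-G1 replicate 2 left out, the differences were -0.80, -0.55, -0.73 and -0.66 in the same order. Within slides 1, 2 and 3 the first probe differed by -0.84, -1.07 and -0.57. Over the 25 alternative settings with a test, the differences of the 4 probes ranged from -1.10 to -0.49, with an unadjusted p of at most 0.0324. On the diet without beta-glucan (C-G0) the first probe stood at -0.44 ± 0.19 (SD, n = 4), against -0.17 ± 0.20 in C-G1 and 0.69 ± 0.19 in C-G2. The mean of C-G0 was also below that of C-G1 for the other 3 probes, at -0.39, -0.67 and -0.45, so C-G2 had the highest mean of the 3 groups without LPS.

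**Figure D2:**
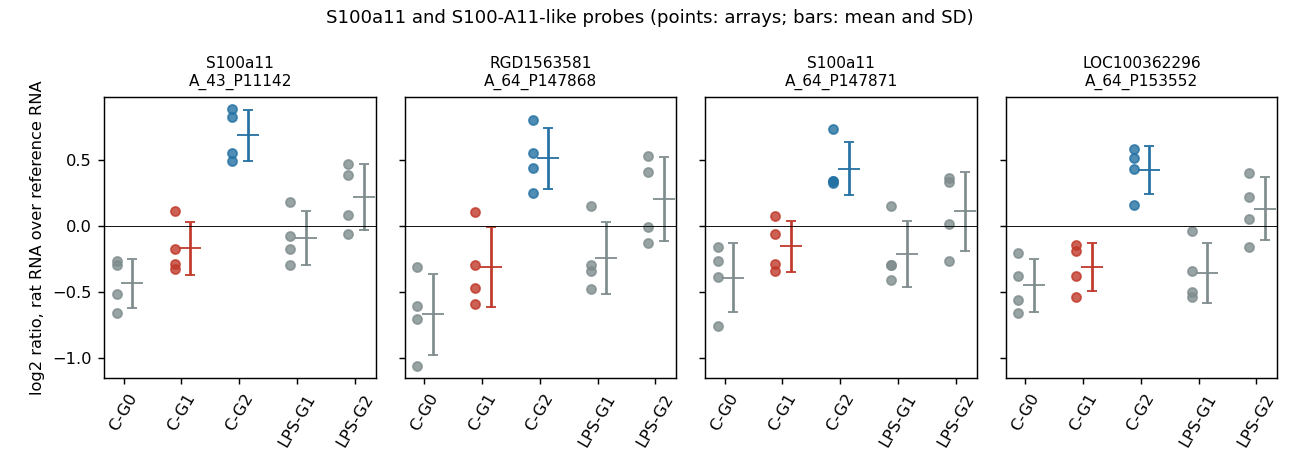
Log2 ratios of rat over reference RNA (y axis) of the 4 S100a11 and S100-A11-like probes, with 1 point per array for 5 groups of 4 arrays, and a bar for the mean and SD. C-G2 lies above C-G1 on every array, C-G0 has the lowest mean in each panel, and LPS-G2 has a higher mean than LPS-G1 in each panel.

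Further genes were named by rule, and LOC100362296 and RGD1563581 were among them: the 10 in each direction with non-overlapping arrays, an unadjusted p under 0.05 and, first, at least a 2-fold difference. The absence of overlap is therefore what chose them and not a finding. Of the 10 higher in C-G1, 7 reached 2-fold, and of the 10 lower, 7. Only 7 of these 20 probes (3 higher, 4 lower) passed the background flag on every one of the 8 arrays. The limma adjusted p was between 0.313 and 0.315 for all 20.

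Among the genes higher on the G1 diet, Thumpd2, an RNA methyltransferase with a THUMP domain, had ratios of -0.22, 1.30, 0.43 and -0.40 in C-G1 and -1.99, -1.33, -0.89 and -0.69 in C-G2. The probe failed the background flag on all 4 arrays of C-G2, so its level there has only an upper bound. With that bound C-G1 was 2.22-fold higher, and the adjusted limma p was 0.313. That bound takes, for each C-G2 array, the dimmest signal that passed the flag, or the probe's own signal if that was higher. It comes from 1 normalization and has no error attached, and over the alternative settings the log2 difference ranged from 0.44 to 1.73.

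Adcy7, an adenylyl cyclase found in blood cells, had ratios of 0.15, 0.73, 0.74 and 0.09 in C-G1 and of -0.86, -0.09, -1.15 and -0.30 in C-G2. Its difference was 1.02 ± 0.26, with a limma p of 0.000608 and an adjusted p of 0.313. The Adcy7 probe passed the background flag on only 2 arrays of C-G2, and over the alternative settings its difference ranged from 0.26 to 1.19. Med18, a subunit of the Mediator complex that links transcription factors to RNA polymerase, passed the background flag on every array. Its ratios were 0.35, 0.92, 0.66 and 0.06 against -1.03, -0.05, -1.09 and -0.27, a difference of 1.11 ± 0.32. Prss39, a serine protease gene, had 0.78, 0.63, 0.21 and 0.43 against -0.66, 0.14, -0.86 and -0.37, a difference of 0.95 ± 0.25. Prss39 and Med18 kept an unadjusted p under 0.05 in every alternative setting that tested them.

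The splicing factor gene Srsf3 differed by 0.81 ± 0.22 at its brightest probe, but its other tested probe differed by 0.04 ± 0.15 with an unadjusted limma p of 0.785, so the probes disagree. Ldaf1, which takes part in the formation of lipid droplets, was at 0.69, 0.76, 0.87 and 0.73 in C-G1 and at -0.11, 0.40, 0.02 and 0.13 in C-G2. The spread within C-G1 was small for this gene, and its difference was 0.65 ± 0.18. Nxpe3 (1.32 ± 0.44), the transcription factor gene Gtf2ird1 (1.32 ± 0.48), the centrosomal gene Cep350 (1.09 ± 0.48) and the nudix hydrolase gene Nudt13 (1.05 ± 0.50) complete the list. These last 4 probes passed the background flag on 1 array of C-G2, so their differences are from a level that was mostly not above background. When 1 array was left out, Cep350 no longer had an unadjusted p under 0.05 without C-G1 replicates 2 or 3 or C-G2 replicates 1 or 3 (0.85 to 1.01), and Nudt13 had one only without C-G2 replicate 2 (1.29, and 0.87 to 1.11 without each of the others).

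Among the genes lower on the G1 diet, Tspo2, a translocator protein of developing red cells, was at -0.97, -1.51, -0.97 and -0.95 in C-G1 and at 0.49, -0.26, 0.33 and -0.74 in C-G2. Its difference was -1.05 ± 0.29, with an unadjusted limma p of 0.00132 and an adjusted p of 0.313, and it too kept an unadjusted p under 0.05 in every alternative that tested it. Tspan33, a tetraspanin of B cells and red cell precursors, was at -0.68, -1.58, -0.67 and -0.43 against 0.28, -0.41, 0.67 and 0.26, a difference of -1.04 ± 0.35. The lowest array of both genes was C-G1 replicate 2, which was the lowest array of C-G1 for 8 of the 10 genes.

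Cenpn, which binds centromeric chromatin in dividing cells, was at -0.64, -0.93, -1.59 and -0.17 against 0.70, 0.31, 0.17 and 0.06, a difference of -1.14 ± 0.31. Its probe passed the background flag on only 2 arrays of C-G1, and its difference ranged from -1.36 to -0.36 over the alternative settings. Vcan, the proteoglycan versican that monocytes make, was at -0.09, -1.36, -0.52 and -0.54 against 1.11, 0.48, 0.23 and 0.73, a difference of -1.27 ± 0.44. Vcan passed the background flag on 1 array of C-G1 and on all 4 of C-G2, so its difference is from a level that was mostly not above background. Kank1, a regulator of the actin cytoskeleton, differed by -1.08 ± 0.35, and one of its arrays, C-G1 replicate 2, stood at -2.08. Without that array the difference of Kank1 was -0.65.

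Of the genes with no established name, LOC102546862 differed by -1.0 ± 0.24 and RGD1564308 by -0.94 ± 0.25. Both probes passed the background flag on only 2 arrays of C-G1. Over the alternative settings their differences ranged from -1.17 to -0.49 and from -1.06 to -0.32.

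**Figure D3:**
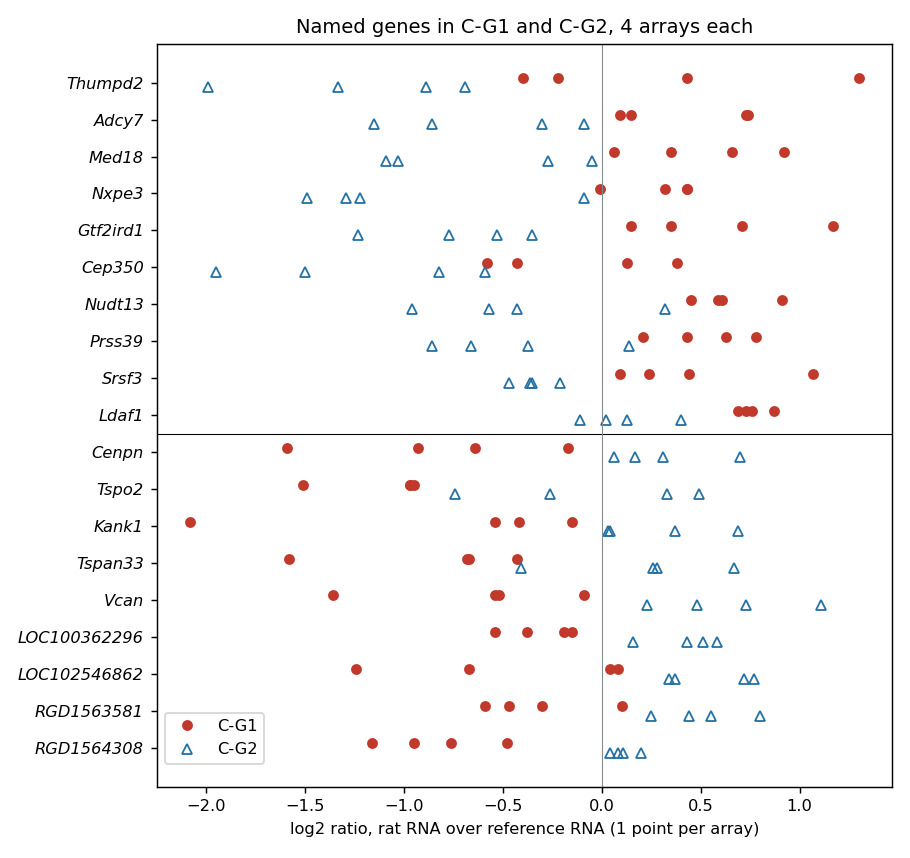
Log2 ratios of rat over reference RNA (x axis) for 19 of the 20 named genes, with filled circles for the 4 arrays of C-G1 and open triangles for the 4 of C-G2. The upper 10 genes are higher and the others lower in C-G1, and a single C-G1 array of Kank1 lies at -2.08.

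Against the diet without beta-glucan, the mean of C-G0 lay between those of C-G1 and C-G2 for 15 of these 20 genes. These genes were chosen for a wide gap between C-G1 and C-G2, which by itself favours a C-G0 mean between them. The same count over all probes is not given, so no conclusion is drawn from the 15. Thumpd2 stood at 0.59 ± 0.43 (SD, n = 4) in C-G0, above the means of C-G1 and C-G2. Tspo2 stood at 0.01 ± 0.71, near the level of C-G2, whose mean was -0.04, and above the C-G1 mean of -1.10.

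The molecules through which leukocytes bind beta-glucans and signal were tested with 18 of 22 genes, and their median difference was -0.01, beside 0.03 over all probes. Of the 18, 9 were higher and 9 lower in C-G1, and 2 were lower at an unadjusted p under 0.05 (10.1% of all probes were). This count was 0 without C-G1 replicate 2, C-G1 replicate 3 or C-G2 replicate 1, and 1 to 3 without each of the other arrays. Of all 10027 probes, 192, 838 and 344 were lower at that p in the settings with 0, in place of 1008. The receptor dectin-1, Clec7a, was at -0.22, -0.53, -0.24 and -0.03 in C-G1 and at 0.11, 0.49, -0.21 and -0.15 in C-G2. The groups overlapped, and the difference was -0.32 with a 95% confidence interval of -0.87 to 0.24. Itgam, the alpha chain of complement receptor 3, was at 0.25, -0.68, -0.45 and -0.13 against 0.32, 0.17, 0.22 and 0.28, a difference of -0.50 ± 0.22, with an unadjusted limma p of 0.0329 and an adjusted p of 0.313 (-0.36 without C-G1 replicate 2). Its partner chain Itgb2 differed by -0.04 ± 0.19.

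Downstream of dectin-1, the kinase gene Syk differed by 0.14 ± 0.20, and its 95% confidence interval was -0.27 to 0.54. The adaptor gene Card9 was at -0.21, -0.55, -0.47 and 0.12 in C-G1 and at 0.79, 0.00, 0.40 and -0.06 in C-G2, a difference of -0.56 ± 0.22, with an unadjusted limma p of 0.0176 and an adjusted p of 0.313 (-0.47 without C-G1 replicate 2, -0.39 without C-G2 replicate 1). The genes of the proteins with which Card9 forms a complex, Bcl10 and Malt1, differed by 0.33 ± 0.30 and 0.01 ± 0.32. For Fcer1g, a signalling chain shared by Fc receptors and C-type lectins, the difference was -0.33 ± 0.17, and for the phospholipase gene Plcg2, whose groups did not overlap, it was 0.17 ± 0.24. The scavenger receptor gene Cd36 (-0.23 ± 0.34), the lectin gene Clec4d (0.03 ± 0.40), Lgals3 (-0.05 ± 0.24), Vav1 (0.13 ± 0.20), Prkcd (0.15 ± 0.14), Map3k7 (0.27 ± 0.21), the phosphatase gene Ptpn6 (0.13 ± 0.18) and the tetraspanin gene Cd37 (-0.27 ± 0.20) had intervals that included 0. For 17 of the 18 genes, dectin-1 and Syk among them, the 95% confidence interval excluded a 2-fold difference. The exception was Card9, whose interval reached -1.02.

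Young red cell genes had the lowest median difference of all 36 gene lists, -0.64 over 11 tested genes. Of these, 10 were lower in C-G1, beside 4686 of all 10027 probes. Slc4a1, the anion exchanger band 3 of the red cell membrane, was at -0.41, -1.05, -0.12 and -0.34 in C-G1 and at -0.39, 0.17, 0.44 and 0.44 in C-G2. Its difference was -0.64 ± 0.25, with an unadjusted limma p of 0.0165 and an adjusted p of 0.313. Epb42, a protein that ties band 3 to the membrane skeleton, differed by -0.73 ± 0.33, Gypc, glycophorin C, by -1.10 ± 0.45 and Klf1, the erythroid transcription factor, by -0.71 ± 0.33. These 4 of the 11 were the genes of the list at an unadjusted p under 0.05, beside 10.1% of all probes that were lower at that p. The Gypc probe passed the background flag on only 2 arrays of C-G1. Over the alternative settings the difference of Gypc ranged from -1.56 to -0.37.

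The size of this difference rested largely on 1 array. The medians of the list were -0.21, -1.38, -0.71 and -0.10 in C-G1 and -0.13, -0.26, 0.34 and -0.45 in C-G2, so 2 of the 4 C-G1 arrays lay within the range of C-G2. Without C-G1 replicate 2 the median difference was -0.19 and no gene of the list had an unadjusted p under 0.05. That count was also 0 without C-G2 replicate 3 and 1 without C-G1 replicate 3 or C-G2 replicate 1, where the medians were -0.49, -0.54 and -0.44. Without C-G1 replicates 1 or 4 or C-G2 replicates 2 or 4 the medians were -0.80, -0.81, -0.57 and -0.84. In these, 6, 7, 4 and 5 genes were lower at that p, and of all 10027 probes 1391, 1365, 1641 and 1053 were. The number over all probes fell from 1008 to 192 without C-G1 replicate 2. It was 424, 838 and 344 without C-G2 replicate 3, C-G1 replicate 3 and C-G2 replicate 1. Within slides the list median was -0.02, -0.62 and 0.01. The globin genes, which make up most red cell RNA, had intervals that included 0: Hba-a1 differed by -0.11 ± 0.13 and Hbb by 0.04 ± 0.20.

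The list named for enzymes that remove peroxide and superoxide had a median difference of -0.22 over 19 tested genes. Of them, 14 were lower in C-G1, beside 4686 of all 10027 probes. The list also holds genes of other enzymes, such as the heme oxygenase gene Hmox1 and the quinone reductase gene Nqo1. Catalase, Cat, was at -0.46, -1.05, -0.76 and -0.34 in C-G1 and at 0.45, 0.12, 0.45 and -0.10 in C-G2, with no overlap between the groups. Its difference was -0.88 ± 0.26, with an unadjusted limma p of 0.00223 and an adjusted p of 0.313. At an unadjusted p under 0.05, 5 of the 19 were lower (beside 10.1% of all probes) and none higher (5.75%), namely Cat, Prdx2 (-0.70 ± 0.24), Hmox1 (-0.54 ± 0.22), Nqo1 (-0.69 ± 0.28) and Gpx1 (-0.50 ± 0.24). Cat, Prdx2 and Gpx1 are abundant in red cells. The red cell list moved with them, with array medians of -1.38 to -0.10 in C-G1 and -0.45 to 0.34 in C-G2, and its part in these differences was not tested. Without C-G1 replicate 2 the median was -0.10 and 1 of the 19, Cat (-0.75), had an unadjusted p under 0.05, and without C-G2 replicate 1 it was -0.12 with 2. Of all 10027 probes, 192 and 344 were then lower at that p, in place of 1008. Without each of the other arrays 3 to 6 of the 19 were.

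Genes of heme synthesis and iron handling had a median difference of -0.26 over 17 genes. Of them 2 were lower at an unadjusted p under 0.05, near the 10.1% of all probes, one being Slc25a37 (-0.66 ± 0.27), which brings iron into mitochondria. Its value on C-G1 replicate 2 was -1.61. The autophagy list had a median of -0.15 over 22 genes, with 3 lower at an unadjusted p under 0.05, again near the share of all probes. These were Atg9a (-0.68 ± 0.23), a membrane protein of early autophagosomes, and the LC3 genes Map1lc3a (-0.48 ± 0.18) and Map1lc3b (-0.42 ± 0.19). Without C-G1 replicate 2 the medians of the heme and autophagy lists were -0.08 and -0.07, with no gene of either list at an unadjusted p under 0.05. Of all 10027 probes, 192 in place of 1008 were lower at that p without this array.

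Cytosolic ribosomal proteins had the highest median difference of the 36 lists, 0.29 over 70 tested genes. Of these, 63 were higher and 7 lower in C-G1, beside 5341 and 4686 of all 10027 probes. At an unadjusted p under 0.05, 8 were higher, against 5.75% of all probes. The largest of them was Rpl22, at 0.25, 0.80, 0.45 and 0.33 in C-G1 and at -0.47, 0.30, -0.37 and -0.11 in C-G2, a difference of 0.62 ± 0.23, with an unadjusted limma p of 0.0116 and an adjusted p of 0.313. Rps27a differed by 0.45 ± 0.16 with overlapping arrays, and for 1 of the 70 genes the arrays did not overlap. Array medians of the list were 0.13, 0.64, 0.12 and 0.13 in C-G1 and -0.28, 0.11, -0.02 and 0.17 in C-G2. C-G1 replicate 2 was the high array and C-G2 replicate 1 the low one. Without C-G1 replicate 2 the median was 0.15 with 58 of 70 genes higher, and without C-G2 replicate 1 it was 0.17 with 60 of 70 higher. In either case 1 gene, in place of 8, was higher at an unadjusted p under 0.05, and without C-G2 replicate 3 the number was 3. Over all 10027 probes the number higher at that p also fell, from 577 to 166, 194 and 254 in the same order. Without C-G1 replicates 1, 3 or 4 or C-G2 replicates 2 or 4 the list had 11, 9, 15, 15 and 14 such genes. Of all probes, 640, 471, 606, 1151 and 663 were then higher at that p.

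Heat shock proteins and their cochaperones had a median difference of 0.15. Of 18 tested genes, 18 were above 0 in C-G1 minus C-G2, beside 5341 of all 10027 probes. Their differences were small, from 0.01 for Dnajb1 to 0.48 for Dnaja2, and only Dnaja2 had an unadjusted p under 0.05, with a limma p of 0.0487. Without C-G1 replicate 2 the median was 0.14 with 16 of 18 genes above 0, and Dnaja2 (0.33) was no longer at that p. Without C-G2 replicate 3 the median was 0.08.

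**Figure D4:**
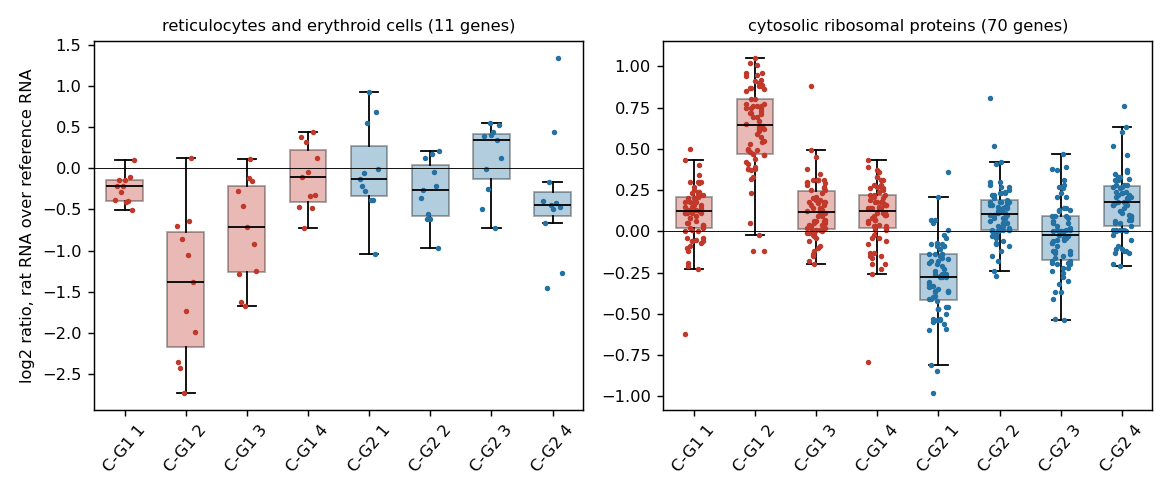
Log2 ratios of rat over reference RNA (y axis) of 11 erythroid genes (left) and 70 ribosomal protein genes (right) on the 4 arrays of C-G1 (red) and of C-G2 (blue), with 1 point per gene, a box for the quartiles, a line for the median and whiskers for the rest apart from outlying genes. C-G1 replicate 2 has the lowest erythroid and the highest ribosomal median, -1.38 and 0.64.

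Among leukocyte lists, T cell genes had a median of 0.28 over 12 genes and neutrophil genes one of -0.24 over 7. None of the T cell genes had an unadjusted p under 0.05, and Csf3r, the receptor of granulocyte colony-stimulating factor, was the neutrophil gene that did (-0.55 ± 0.25). That was 1 of 7 neutrophil genes, beside 10.1% of all probes that were lower at that p. The abundant neutrophil genes S100a8 and S100a9 differed by -0.24 ± 0.34 and -0.13 ± 0.38. Within slides the neutrophil median was -0.19, -1.33 and 0.84, so its direction changed between slides. Each of these values compares the few arrays of a slide, so slides and single arrays cannot be told apart here. Single arrays moved these medians: without C-G1 replicate 2 that of T cells was 0.11 and that of neutrophils -0.04, and without C-G1 replicate 4 or C-G2 replicates 2 or 3 that of neutrophils was -0.53, 0.00 or -0.46. The T cell median was 0.15 without C-G2 replicate 1. B cell genes had a median of 0.21 over 7 genes, monocyte genes -0.01 over 8 (Lyz2, 0.14 ± 0.31) and platelet genes -0.21 over 11. Gp5, a platelet adhesion receptor chain, was the platelet gene at an unadjusted p under 0.05 (-0.41 ± 0.16), 1 of 11 beside the same 10.1%. Genes of cytotoxic T and NK cells had a median of -0.21 over 10, with Nkg7 at -0.44 ± 0.25. The platelet median turned to 0.08 without C-G1 replicate 2 and was -0.13 without C-G2 replicate 3. The cytotoxic median turned to 0.04 without C-G1 replicate 4 and was -0.11, -0.13 and -0.10 without C-G1 replicate 2 and C-G2 replicates 1 and 4. The B cell median was 0.06 without C-G2 replicate 1. Csf3r (-0.37) and Gp5 (-0.24) no longer had an unadjusted p under 0.05 without C-G1 replicate 2. The list of eosinophils, basophils and mast cells had only 2 tested genes, of which Hdc, the histamine-forming enzyme, differed by 0.81 ± 0.40 with no overlap and an unadjusted limma p of 0.0555.

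Single immune genes with an unadjusted p under 0.05 came from several lists. Lower at that p were 2 of 11 TNF, 2 of 11 inflammasome and 1 of 8 NF-kB genes, beside 10.1% of all probes. Of 17 interferon genes 1 was lower and 1 higher, beside 5.75% of all probes that were higher. Tnfrsf4, the T cell costimulatory receptor OX40, was at -0.26, -1.21, -0.09 and -0.30 in C-G1 and at 0.37, -0.28, 0.53 and 0.15 in C-G2. Its difference was -0.66 ± 0.20, with an unadjusted limma p of 0.00327 and an adjusted p of 0.313, and its unadjusted p stayed under 0.05 in every alternative that tested it, though the difference was -0.41 without C-G1 replicate 2. Nfkbib, an inhibitor of NF-kB, differed by -0.67 ± 0.22, Il1r2, the decoy receptor of interleukin 1, by -0.83 ± 0.34, and Nlrp1a, an inflammasome sensor, by -0.46 ± 0.22. Lymphotoxin alpha, Lta, differed by -0.52 ± 0.24. In the interferon list Rsad2, an antiviral enzyme, was lower in C-G1 (-0.73 ± 0.30) and the transcription factor gene Irf1 higher (0.60 ± 0.28), while its median was 0.16 over 17 genes. When C-G1 replicate 2 was left out, Nfkbib (-0.50) kept an unadjusted p under 0.05, and Il1r2 (-0.44), Nlrp1a (-0.16), Lta (-0.43), Rsad2 (-0.53) and Irf1 (0.51) did not. The interferon median was 0.03 and 0.06 without C-G2 replicates 3 and 4. Immune pathway lists with no gene at that p were Toll-like receptors (median 0.15 over 8), chemokines and their receptors (0.03 over 12), interleukins and their receptors (0.24 over 12), MHC class II (0.21 over 8), complement (-0.02 over 9), Fc receptors (-0.02 over 6), the phagocyte NADPH oxidase (0.05 over 7) and immediate-early genes (0.08 over 13). The medians of the lists that hold the single genes were 0.03 over 11 for TNF ligands and receptors, 0.03 over 8 for NF-kB, -0.02 over 11 for the inflammasome and 0.03 over 7 for glucocorticoid-responsive genes, to which Il1r2 also belongs.

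In the metabolic lists, fatty acid uptake and oxidation had 2 of 18 genes lower at an unadjusted p under 0.05 and glycolysis 2 of 17. This was near the 10.1% of all probes. Among genes of fatty acid uptake and oxidation (median -0.21 over 18), the fatty acid transporter gene Slc27a1 was at -0.36, 0.00, 0.16 and -0.09 in C-G1 and at 0.95, 0.35, 0.66 and 0.36 in C-G2. The groups did not overlap, and the difference was -0.65 ± 0.22, with an unadjusted limma p of 0.00771 and an adjusted p of 0.313. Ucp2, a mitochondrial carrier of leukocytes, differed by -0.86 ± 0.30. Acss1, which activates acetate in mitochondria, differed by 0.57 ± 0.24, in a list of short-chain fatty acid receptors and transporters of which 4 genes were tested. Glycolysis had a median of -0.09 over 17 genes, with Eno2 (-0.59 ± 0.23) and Gapdh (-0.45 ± 0.19) lower, and cholesterol synthesis one of 0.13 over 13, with Acat2 at -0.36 ± 0.17. The prostacyclin receptor gene Ptgir differed by -0.41 ± 0.15, in a prostaglandin and leukotriene list with a median of -0.25 over 9, and the clock gene Cry1 by 0.54 ± 0.25, against a median of -0.26 over 5 clock genes. Oxidative phosphorylation (0.02 over 71 genes) and the proteasome (0.09 over 36) had medians near that of all probes. In the cell division list (median -0.24 over 11), the spindle gene Tpx2 differed by -1.57 ± 0.66 (-0.95 without C-G1 replicate 3, no longer at an unadjusted p under 0.05) and the replication gene Mcm3 by 0.56 ± 0.26. The Tpx2 probe passed the background flag on only 2 arrays of C-G1, and its difference ranged from -2.13 to -0.61 over the alternative settings. Of these metabolic and cell division genes, Slc27a1 (-0.68) kept an unadjusted p under 0.05 without C-G1 replicate 2. The values of the others without that array were -0.53 for Ucp2, 0.48 for Acss1, -0.35 for Eno2, -0.31 for Gapdh, -0.17 for Acat2, -0.30 for Ptgir, 0.46 for Cry1, -1.25 for Tpx2 and 0.44 for Mcm3, and none of these 9 kept it.

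Over all lists, 529 probes were tested and 50 had an unadjusted p under 0.05 (9.45%), beside 15.8% of all probes. Of the 35 lower ones, C-G1 replicate 2 was the lowest array of C-G1 for 31. Of the 10 lists with a median of -0.20 or lower, 0 had one that low without this array. These lists were picked with this array included, which favours a rise without it, and the count depends on the limit of -0.20. Some medians moved little, from -0.26 to -0.18 for the clock list and from -0.21 to -0.17 for fatty acid uptake and oxidation.

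**Figure D5:**
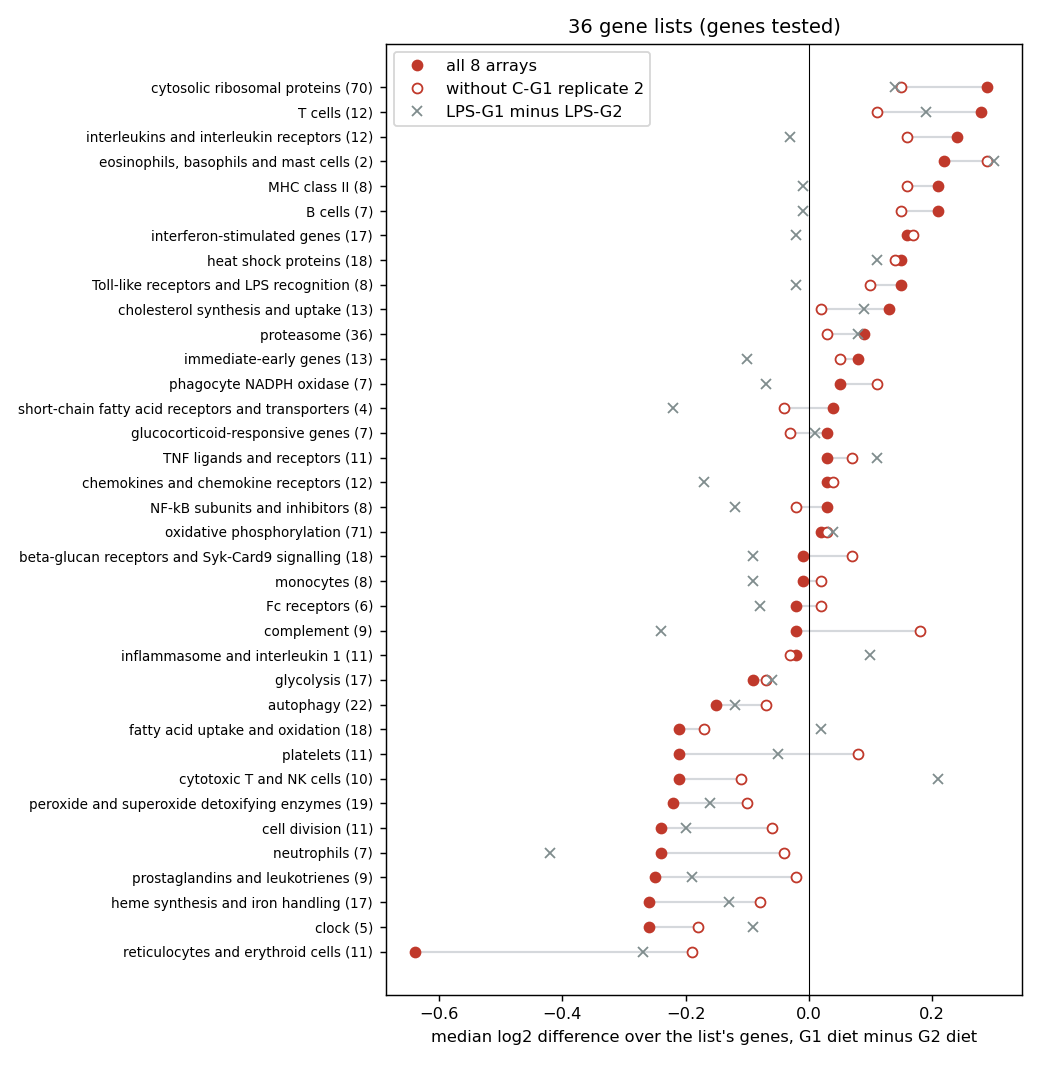
Median log2 difference between the G1 and G2 diets (x axis) for 36 gene lists (number of genes tested in brackets), with filled circles for all 8 arrays, open circles without C-G1 replicate 2 and crosses for the LPS rats. The erythroid median moves from -0.64 to -0.19 without that array, and that of ribosomal proteins from 0.29 to 0.15.

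The same pair of diets was also given to rats that received LPS (LPS-G1 and LPS-G2, 4 arrays each), which share no array with C-G1 and C-G2 but share their reference RNA and their layout over the 3 slides. In these rats 0 probes differed at an adjusted p under 0.05 and 388 (3.87%) did at an unadjusted p under 0.05. The difference between the diets had the same sign with and without LPS for 7848 of 10019 probes (78.3%). With slide as a block this count was 7568 (75.5%), and without C-G1 replicate 2 it was 7339 (73.3%). Probes are not independent of each other, so no test is attached to these shares.

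Of the 331 probes whose C-G1 and C-G2 arrays did not overlap, 288 (87.0%) had the same sign in the LPS rats, and 35 (10.6%) also had an unadjusted p under 0.05 there, against 350 (3.49%) of all. Of the 20 named genes, 18 had the same sign, and 4 also reached that p in the LPS rats. These were Adcy7 (0.80), Nxpe3 (1.03), LOC100362296 (-0.48) and RGD1563581 (-0.44), with unadjusted limma p of 0.0052, 0.029, 0.0115 and 0.0421, and none had an adjusted p under 0.05. For the S100a11 probes the LPS differences were -0.31 ± 0.17 and -0.32 ± 0.17. Ribosomal proteins had a median of 0.14 in the LPS rats with 65 of 70 genes higher on the G1 diet, and heat shock proteins one of 0.11 with 17 of 18 higher, while the erythroid median was -0.27. In sign, the median of 23 of 36 lists was the same in both.

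The difference between the diets was also compared between rats with and without LPS in 1 model. No probe passed at an adjusted p under 0.05 (0%), where limma's smallest was 1, and 91 of 10027 (0.908%) had an unadjusted p under 0.05. The named genes were chosen for a large difference without LPS, which by itself widens their difference between rats with and without LPS, so no count or test of it is given for them. As a description, Prss39 differed by 0.95 without LPS and by -0.06 with it, and Cenpn by -1.14 and -0.16.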

How the data were processed

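Blood RNA of single rats was measured on two-color SurePrint G3 Rat arrays. The deposited files hold, per the file headers, the output of Agilent Feature Extraction 10.10.1.1, while the submitters' processing notes name 10.7.3.1. In them the authors' software had subtracted the background from the intensity of each channel and balanced the dyes by Lowess. The deposited log10 values are the ratio of Cy5 over Cy3. All 1511424 values of the deposited series table were identical to those of the single arrays.

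Log ratios were turned to log2 of Cy3 over Cy5. Control and outlier spots were left out, and spots of a probe were averaged. A probe was well above background where at least 50% of its spots were flagged so. Tested were the 10027 probes well above background on all arrays of either group. All 24 arrays were fitted by group with limma 3.58.1 in R 4.3.3 (two-sided moderated test, Benjamini-Hochberg adjustment over all probes tested). LPS-G0 replicates 3 and 4, whose labels conflict, entered only this shared fit. A call needed an adjusted p under 0.05 and 2-fold. The p-values measure the spread between rats. The number of arrays limits the precision.

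Each gene was represented by its brightest tested probe. Symbols were taken through RefSeq accessions for 6495 of the tested probes, and positions are those of the files (rn4). The naming rule took, per direction, called genes first, then those at an unadjusted p under 0.05 whose arrays did not overlap, with 2-fold differences first, up to 10. It added from each list the members at that p (at most 3, else the 2 brightest), all beta-glucan receptor and signalling genes and the 2 brightest markers of each cell type. Other members at that p were named to complete a stated count. The values of some named genes are not reported here. The members, the 36 lists and the tests were chosen with earlier results of these data known. Before use the model was checked on simulated arrays of 10000 probes, 200 of them changed.

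Alternatives covered the background correction and normalization, the reference channel, the filter, the arrays fitted, slide, replicate number, variance and the methods' 1-way analysis of variance with Tukey HSD. Each of the 8 arrays was also left out in turn. Counts for lists without single arrays and signs in the LPS rats were added after seeing the data.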

Additional observations from a re-analysis of the deposited data

Results flagged for a closer look

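Within a group of 4 arrays, 17 of 290 sets of values had 1 array far from the other 3 (5.86%), and about 1 in 20 such sets would by chance. Of the 17, 16 are given here. In C-G1 the array was replicate 2 in 8 of these cases. Its value was -1.51 for Tspo2 (others -0.97 to -0.95), -1.48 for Nlrp1a (others -0.42 to -0.24), -1.75 for Atg9a (others -0.62 to -0.43) and -1.08 for Map1lc3b (others -0.18 to -0.07). It was -1.06 for the proteasome gene Psmd8 (others -0.15 to -0.09) and -1.58 for Cd36 (others -0.38 to -0.22). For the list of interleukins and their receptors the median of this array was 0.36 (others 0.11 to 0.15), and for ribosomal proteins it was 0.64 (others 0.12 to 0.13).

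In C-G2, replicate 1 stood apart for the B cell gene Pou2af1 (-1.23, others -0.03 to 0.13) and for the cholesterol list (-0.33, others 0.02 to 0.08). Replicate 2 did for Map1lc3b (-0.29, others 0.14 to 0.22) and the autophagy list (-0.18, others 0.06 to 0.10). Replicate 3 did for Cyba (-0.23, others 0.10 to 0.15), the phagocyte oxidase list (-0.15, others 0.10 to 0.15) and the clock list (0.19, others 0.04 to 0.06). Replicate 4 did for the brighter S100a11 probe (0.73, others 0.32 to 0.34), away from C-G1.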

How the results depend on the processing

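No probe was called in the comparison of C-G1 and C-G2 under any alternative except without C-G2 replicate 2, where 3 were (0 to 3 over the arrays left out): Igip (1.57), Eif1ad (1.44) and 1 unnamed probe (1.31), each with an adjusted limma p of 0.0387. The 73 probes with a 2-fold difference and an unadjusted p under 0.05 became 5 with normexp and loess, 540 without a filter on dim probes and 36 with slide as a fixed block. They became 11 and 12 for probes well above background on all 24 and all 8 arrays. Leaving out single arrays gave 25 (without C-G1 replicate 2) to 262 (without C-G2 replicate 2), with 166 and 200 without C-G1 replicates 1 and 4, 39, 38 and 142 without C-G2 replicates 1, 3 and 4. With the methods' analysis of variance and Tukey HSD, 9 had a 2-fold difference and a Tukey p under 0.05, and 0 passed after Benjamini-Hochberg adjustment. The Tukey p already allows for all pairs of the 6 groups, so its counts are not on the scale of the limma counts. It also served as the p of that setting for single genes. Of any fold, 1585 probes had an unadjusted limma p under 0.05, and the number was 358 without C-G1 replicate 2, 538 and 678 without C-G2 replicates 1 and 3, 2792 without C-G2 replicate 2, 658 from Cy3 alone and 914 and 732 in fits of 8 and 12 arrays. By the Tukey p, 73 probes were under 0.05. The share of the 73 that was higher in C-G1, 52.1%, was 0% of 5 with normexp and loess, 73.5% of 68 with quantile and 41.8% of 79 with median scaling, and 37.2% of 94 from Cy3 alone. The causes were not tested. Of 72 probes followed at an unadjusted p under 0.05, 0 reversed and 13 kept that p in every alternative that tested them.

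Replicate numbers were not used as pairs. C-G1 and C-G2 arrays of the same number had residual correlations of 0.48, 0.51, -0.16 and -0.25 for numbers 1, 2, 3 and 4. The arrays numbered 1, 2 and 4 also shared a slide. With the replicate block, 0 probes were called, 74 passed the unadjusted p and 2-fold, and 2222 the unadjusted p. The smallest adjusted limma p was then 0.111. For the difference of the diet difference with LPS, 0 probes passed the adjusted p in any setting. The 91 at an unadjusted p under 0.05 were 139 with the replicate block, 47 for probes well above background on all 24 arrays and 69 to 245 without single arrays, highest without C-G2 replicate 2.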
